A study of Rattus norvegicus with 6 samples.

Results

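The genes described here are 10 transcripts grouped under the label of resident macrophage and complement C1q genes. They are the complement C1q chains C1qa, C1qb and C1qc, the growth factor receptor Csf1r, and the signalling adaptors Tyrobp and Fcer1g. The others are the lysosomal and scavenger proteins Cd68, Cd163 and Mrc1, and the lipopolysaccharide receptor Cd14. The label does not mean that each gene is confined to resident macrophages. The set was chosen with earlier results of these data known, and its rows were picked by gene symbol from the platform annotation. Its counts beside the shares of all genes are therefore a description and not a test of enrichment. Each of the 10 symbols matched 1 row of the deposited table, so no choice between rows arose, and they are 10 of the 14506 genes that were compared. The RNA was from gastrocnemius, a calf muscle, of male Sprague-Dawley rats made obese by diet. They were 20 weeks old after 8 weeks of unrestricted feeding on a diet high in fat and sucrose. In all groups 10% of the energy was protein. In the leucine group 7.1% of the energy was casein and 2.9% was leucine, in the dairy group the protein was skim milk powder, and in the casein group, the control, it was casein alone. The design text speaks of 4 rats per diet, and 2 arrays per diet, 6 in all, were analysed. Nothing in the labels says whether the arrays of a diet come from separate rats, so p-values measure the spread between these samples, which may be technical. The number of arrays limits the precision of every value.

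C1q is the recognition part of the first complement component. Its A, B and C chains assemble through collagen-like stems, bind immune complexes and dying cells, and activate the proteases C1r and C1s of the classical pathway. Macrophages are a main source of C1q in most tissues. Those of skeletal muscle lie mostly in the connective tissue between fibres, depend on signals through Csf1r, and clear debris after fibre damage. In RNA from whole muscle, fewer macrophages and less RNA per macrophage cannot be told apart.

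The values were log2 signals, 1 per gene and array, in which a difference of 1 is a 2-fold change of signal. Array medians over all rows lay between 3.46 and 3.56. Signals of different genes come from different probes and do not rank abundance. Fast-fibre genes were above the median gene in 10 of 10 measured cases, and slow-fibre genes also in 10 of 10. The protocol texts of these muscle samples speak of liver in 2 steps. Of 7 measured markers of Kupffer cells, the macrophages of liver, 3 were above the median gene, and Clec4f, Cd5l, Marco and Vsig4 were below it. Of 22 hepatocyte markers 14 were above it, Alb among them. These positions depend on the probes and do not settle whether liver RNA was present. Casein array 2 stood apart. Its mean correlation with the other arrays was 0.974, against 0.985 to 0.988 for the rest. Comparisons with casein are therefore given with and without it.

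Levels of other leukocyte genes were set beside the label of the gene set as a description only, since a position above or below the median gene depends on the probes and does not show which cells were present. Of 21 further macrophage genes measured, 12 were above the median gene, among them Ctss, Lyz2 and Cybb, while the macrophage markers Adgre1 and Aif1 were below it. For neutrophils this was so in 0 of 11, for mast cells in 0 of 9, for B and plasma cells in 0 of 5 and for T and natural killer cells in 1 of 14. Of the 10 genes themselves 8 were above the median gene, and Tyrobp and Cd68 were below it.

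The C1q genes C1qb, C1qc and C1qa are neighbours on rat chromosome 5 with no other RefSeq gene between them. Upstream sequence was examined because macrophage genes are classically bound by PU.1, the factor encoded by Spi1, at purine-rich boxes such as GAGGAA. RefSeq promoter windows of the GRCr8 build matched 7 of the 10 genes. C1qc, Tyrobp and Fcer1g were not matched. The first 250 bases of each window, up to the start that the promoter table uses, were searched on both strands for GAGGAA and for GGAAGT, which can overlap by 4 bases. For Csf1r, Cd163 and Cd14 this stretch overlaps the gene as RefSeq lists it, so matches there need not lie before the gene. The stretch of Cd14 lies wholly inside the listed gene, and so do its matches. The windows of C1qa and C1qb are shown because for these chains both leucine arrays lay below the other 4, as given next. Both run 5′ to 3′ on the minus strand, at chr5:154419934-154420183 for C1qa and chr5:154407828-154408077 for C1qb, and capitals mark matches on either strand.
C1qa: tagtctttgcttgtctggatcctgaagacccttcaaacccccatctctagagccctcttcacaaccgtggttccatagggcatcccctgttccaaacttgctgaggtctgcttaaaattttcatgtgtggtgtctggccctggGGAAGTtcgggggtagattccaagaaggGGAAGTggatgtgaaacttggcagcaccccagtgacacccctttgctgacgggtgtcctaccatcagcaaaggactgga
C1qb: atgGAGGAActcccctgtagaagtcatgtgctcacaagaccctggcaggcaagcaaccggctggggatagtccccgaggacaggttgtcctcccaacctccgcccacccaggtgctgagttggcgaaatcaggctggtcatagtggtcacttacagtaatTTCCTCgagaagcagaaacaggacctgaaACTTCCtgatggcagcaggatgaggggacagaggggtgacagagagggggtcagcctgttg

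C1qa held 2 matches to GGAAGT and 0 to GAGGAA, and C1qb held 1 and 2. GAGGAA was present in 5 of the 7 windows, namely those of C1qb, Csf1r, Cd68, Mrc1 and Cd14, and in 23.2% of 27457 RefSeq windows of the same length. GGAAGT was present in 4 of the 7, against 19.5% of all windows. At least 1 of the 2 was present in 6 of the 7, against 36.9%, and Cd163 held neither. These are matches of letters and do not show binding.

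All 3 C1q chains had their lowest mean with leucine, and in C1qa and C1qb the leucine arrays were also the lowest single arrays. C1qa had 4.29 and 3.99 on the leucine arrays, 4.58 and 4.80 on the dairy arrays, and 4.53 and 4.95 on the casein arrays. C1qb had 4.16 and 4.10 with leucine, 5.40 and 5.09 with dairy, and 4.97 and 5.45 with casein. For these chains both leucine arrays lay below all 4 others, and the dairy and casein arrays overlapped. C1qc had 5.83 and 5.80 with leucine, 6.23 and 6.78 with dairy, and 4.99 and 7.14 with casein. Its casein arrays were the lowest and the highest of the 6, and the gap of 2.15 between them compares with gaps of 0.42 for C1qa and 0.47 for C1qb. The spread of the casein arrays thus differed between chains that are built into the same protein.

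Csf1r, the receptor for Csf1 and Il34, had 5.36 and 5.21 with leucine, 6.33 and 6.01 with dairy, and 5.73 and 6.01 with casein. Both leucine arrays were again below the other 4. Tyrobp, which couples receptors such as Trem2 to the kinase Syk through an activation motif, had 3.01 and 2.89 with leucine and 3.51 on all 4 dairy and casein arrays. Those 4 deposited values were identical, so its SD is 0 in both diets and its small standard error rests on them. An identical value on at least 2 arrays also occurred for Cd68, Cd14 and Csf1r, 4 of the 10 genes in all, and for 60.8% of all genes. The reason for the identical values was not tested. Fcer1g, the shared gamma chain of Fc receptors, had 3.78 and 4.73 with leucine, 4.81 and 5.09 with dairy, and 4.00 and 5.77 with casein. The leucine arrays lay below the dairy arrays, and the casein arrays spanned all but 1 of the others.

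Cd68, a lysosomal glycoprotein of phagocytes, had 3.65 and 3.63 with leucine, 4.25 on both dairy arrays, and 3.48 and 4.83 with casein. Cd163, the scavenger receptor for haemoglobin bound to haptoglobin, had 5.33 and 4.52 with leucine, 5.88 and 5.25 with dairy, and 4.64 and 5.88 with casein. Mrc1, the macrophage mannose receptor, had 5.45 and 5.11 with leucine, 6.22 and 5.91 with dairy, and 5.28 and 6.65 with casein. In this group the leucine and dairy arrays were apart for Cd68 and Mrc1 and overlapped for Cd163. Cd14, the coreceptor that hands lipopolysaccharide to Tlr4, had 4.48 and 4.42 with leucine, 5.31 on both dairy arrays, and 4.64 and 7.12 with casein. The value on casein array 2 was the highest of the 6 by far, and casein array 1 lay between the leucine and the dairy arrays.

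**Figure D1:**
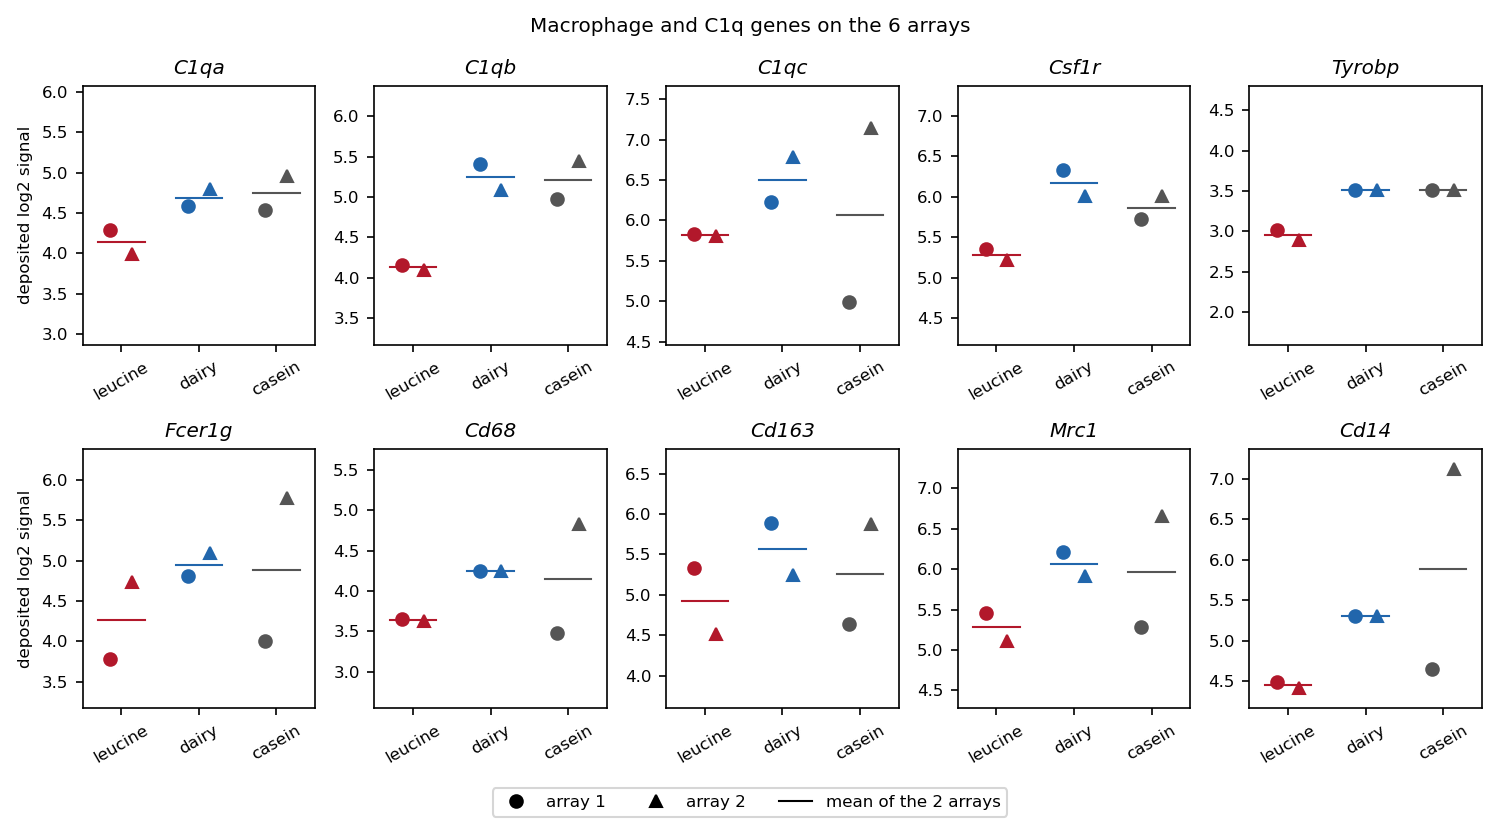
Deposited log2 signal (vertical axis, the same span of 3.2 log2 units in every panel) of each of the 10 genes on the leucine, dairy and casein arrays, with circles for array 1, triangles for array 2 and a line at the mean of the 2 arrays. The leucine arrays lie below the dairy arrays in 9 of 10 genes, and the casein arrays lie over 1 log2 unit apart in 6.

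Across the 10 genes, casein array 2 held the highest value in 7 and a leucine array the lowest in 8, while casein array 1 held the lowest in C1qc and Cd68. The shares of all genes highest or lowest on these arrays were not counted, so these counts do not show a trait of the 10 genes. Relative to each gene's mean over the 6 arrays, the median of the 10 was −0.34 and −0.55 on the leucine arrays, 0.21 and 0.23 on the dairy arrays, and −0.51 and 0.72 on the casein arrays. The 2 casein arrays thus differed more from each other than the leucine arrays did from the dairy arrays. Casein array 2 was above casein array 1 in 9 genes, by a median of 1.29, where the median over all genes was 0. In 6 of the 10 the casein arrays differed by over 1 log2 unit, against 4.16% of all genes. Between the dairy arrays and between the leucine arrays this was so in 0 of the 10.

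The comparison of leucine with dairy asked how casein partly replaced by free leucine differed from whole dairy protein, and its means do not use the casein arrays. All 10 genes were lower with leucine, where 48.5% of all genes were, and the median of their log2 fold changes was −0.69, where that of all genes was 0. Log2 fold changes are from limma on all 6 arrays, with the standard error of the model. C1qb averaged 4.13 ± 0.04 with leucine and 5.25 ± 0.22 with dairy (SD, n = 2 each), which is −1.12 ± 0.20 on the log2 scale, or 2.17-fold lower. Csf1r averaged 5.29 ± 0.10 with leucine and 6.17 ± 0.23 with dairy, 1.84-fold lower (−0.88 ± 0.16). C1qa stood at −0.55 ± 0.20 and Tyrobp at −0.56 ± 0.07. The other 6 were between −0.60 for Cd68 and −0.86 for Cd14, with standard errors between 0.46 and 0.84. In 9 of the 10 both leucine arrays lay below both dairy arrays, as in 14.9% of all genes. The exception was Cd163, for which leucine array 1 was above dairy array 2.

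No gene of the 10 passed the threshold of 0.05 in limma after Benjamini-Hochberg adjustment over the 14506 genes, and 0% of all genes did. The adjusted p was 0.514 for C1qb, Csf1r and Tyrobp and up to 0.903 for the others. C1qa, C1qb, Csf1r and Tyrobp, 4 of 10, were lower with an unadjusted p under 0.05, as were 3.45% of all genes. With casein array 2 left out the fold changes are the same and only the estimate of the spread differs. Then 7 of 10 had an unadjusted p under 0.05, against 4.47% of all genes. Among the 7, Tyrobp, Cd68 and Cd14 had identical deposited values on the dairy arrays, on which their small standard errors rest. Again 0 were past the adjusted threshold in limma, with a lowest adjusted p of 0.512.

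The comparison of leucine with casein asked what replacing part of the casein by leucine changed. On all 6 arrays the 10 genes were lower with leucine, as were 49.1% of all genes, and their median was −0.59 on the log2 scale. That median was −0.10 without casein array 2 and −1.25 without casein array 1. C1qb averaged 4.13 ± 0.04 on the leucine and 5.21 ± 0.33 on the casein arrays (SD, n = 2 each). Its difference was −1.08 ± 0.20, and −0.84 ± 0.17 without casein array 2. Csf1r stood at −0.58 ± 0.16, and −0.44 ± 0.18 without that array. For C1qa the values were −0.60 ± 0.20 and −0.39 ± 0.19. Tyrobp stood at −0.56 ± 0.07 on all 6 arrays and −0.56 ± 0.08 without casein array 2. Cd14 had the most negative fold change on all arrays, −1.43 ± 0.84, which was −0.20 ± 0.05 without casein array 2. The smaller of these standard errors rests partly on dairy arrays with identical deposited values.

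Without casein array 2, 5 of the 10 genes were lower with leucine, as were 47.4% of all genes, and the remaining 5 were higher, as were 47.4%. C1qc stood at −0.25 ± 0.75 on all arrays and 0.83 ± 0.28 without it. Fcer1g stood at −0.63 ± 0.69 and 0.26 ± 0.50, Cd68 at −0.51 ± 0.46 and 0.16 ± 0.04, Cd163 at −0.34 ± 0.55 and 0.28 ± 0.52, and Mrc1 at −0.68 ± 0.50 and 0.0037 ± 0.24. The direction of these 5 thus turned when 1 control array was left out, and that of Cd163 also turned without leucine array 2, at 0.06. In the fit without casein array 2, casein array 1 stands alone and its spread is taken from the other diets. There the small standard errors of Tyrobp, Cd68 and Cd14 rest partly on dairy arrays with identical deposited values. Standard errors and p-values of that fit therefore do not measure the spread of the casein arrays. The leucine and casein arrays were apart, lower with leucine, in C1qa, C1qb, Csf1r, Tyrobp and Cd14, 5 of 10, against 15.6% of all genes. In limma 0 of 10 passed after adjustment, as did 0% of all genes, with a lowest adjusted p of 0.353 for C1qb and Tyrobp. Lower with an unadjusted p under 0.05 were 4 of 10, C1qa, C1qb, Csf1r and Tyrobp, against 4.85% of all genes. Without casein array 2 these were C1qb, Tyrobp and Cd14, 3 of 10 against 6.96%, and Cd68 was higher with such a p, 1 of 10 against 6.31%.

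**Figure D2:**
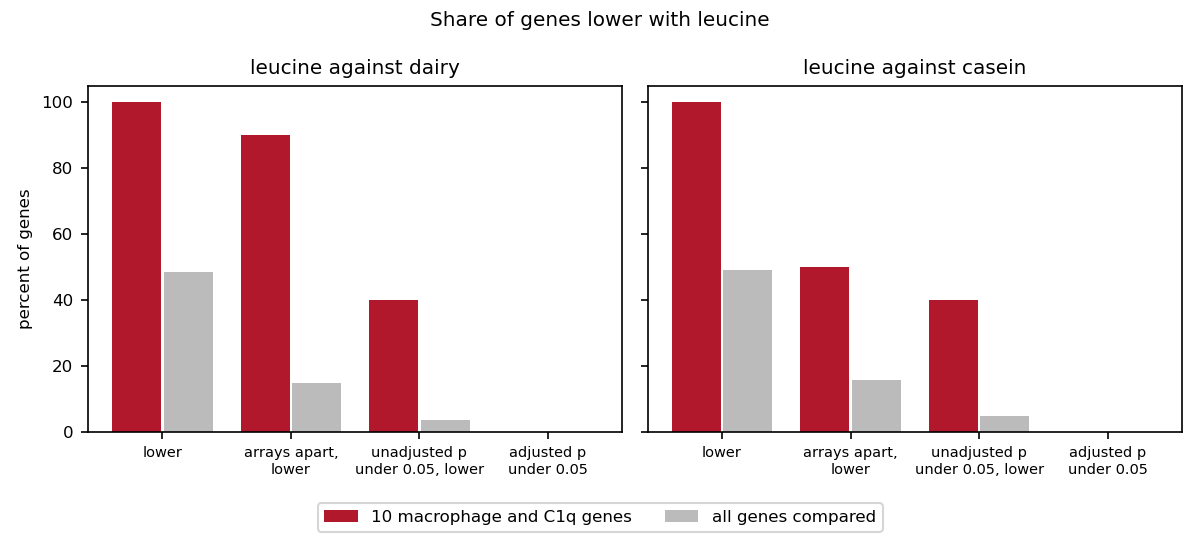
Percent of genes (vertical axis, from 0) that were lower with leucine, that had both leucine arrays below both arrays of the other diet, that were lower with an unadjusted p under 0.05, and that passed the adjusted threshold in limma, for the 10 genes (red) and all 14506 genes (grey). Against dairy 9 of the 10 genes and 14.9% of all genes had arrays apart, against casein 5 of the 10 and 15.6%, and the bars for the adjusted threshold are at 0.

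The comparison of dairy with casein asked what whole dairy protein in place of casein changed, and shares the casein arrays with the previous one. On all 6 arrays, 7 of the 10 genes were higher with dairy, as were 50.6% of all genes, C1qa and Cd14 were lower, as were 46.3%, and Tyrobp was equal. The median log2 fold change was 0.08, with a range from −0.57 ± 0.84 for Cd14 to 0.44 ± 0.75 for C1qc. The arrays of dairy and casein were apart in 0 of the 10, where 11.5% of all genes were apart and higher and 11.7% apart and lower. An unadjusted p under 0.05 was reached by 0 of the 10 in either direction, against 2.49% of all genes higher and 2.31% lower. By limma 0 passed after adjustment, with 0% of all genes, and the adjusted p was 0.833 at the lowest.

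Without casein array 2 the picture of dairy against casein was another one. Then 9 of 10 were higher with dairy, as were 47.7% of all genes, Tyrobp was equal, and the median was 0.72, while without casein array 1 it was −0.45. C1qc stood at 1.52 ± 0.28, Mrc1 at 0.78 ± 0.24, Cd68 at 0.77 ± 0.04 and Cd14 at 0.66 ± 0.05, each with an unadjusted p under 0.05, 4 of 10 against 5.14% of all genes. C1qa at 0.16 ± 0.19, C1qb at 0.27 ± 0.17 and Csf1r at 0.44 ± 0.18 did not have one. The adjusted p was 0.355 at the lowest. The standard errors of Cd68 and Cd14 rest on dairy arrays with identical deposited values. In these fits casein array 1 stands alone and its spread is taken from the other diets.

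**Figure D3:**
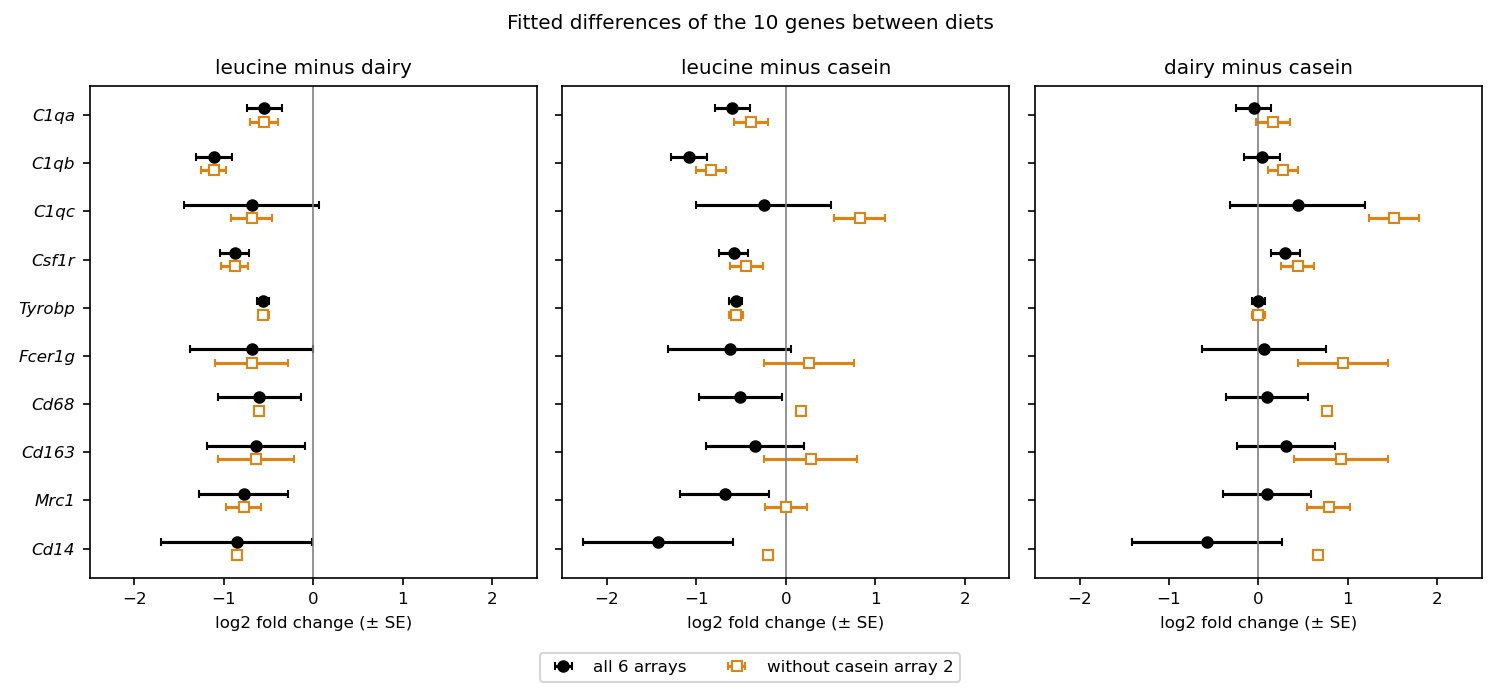
Log2 fold change (horizontal axis, with the standard error of the limma fit) of each of the 10 genes for leucine minus dairy, leucine minus casein and dairy minus casein, from all 6 arrays (filled circles) and without casein array 2 (open squares). For leucine minus dairy all 10 points lie below 0 in both fits, and for leucine minus casein 5 open squares lie above 0.

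Partners of these genes were counted in lists drawn up by function. In the classical complement list 6 of 9 genes were measured. With leucine against dairy 3 of the 6 were lower, the median was −0.44, and 1 of them, C1r, had an unadjusted p under 0.05. C1r, the protease that C1q activates first, had 6.45 and 6.64 with leucine, 8.03 and 7.47 with dairy, and 6.95 and 8.09 with casein. Its leucine arrays were below the other 4, and its log2 fold change was −1.21 ± 0.44 against dairy and −0.97 ± 0.44 against casein, or −0.41 against casein without casein array 2. C1s, the second protease, stood at −1.02 ± 0.56 against dairy and Serping1, the inhibitor of both, at −1.06 ± 0.46. C3, on which the pathways converge, did not follow. It had 3.42 and 6.93 with leucine, 4.84 and 3.13 with dairy, and 4.87 and 7.25 with casein, so that each diet spanned over 1 log2 unit.

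Of the other complement genes 5 of 12 measured were lower with leucine than with dairy and 7 were higher, with a median of 0.06. Of the complement receptors 6 of 8 were lower and 1 was higher, with a median of −0.10. The receptor C3ar1 stood at −0.33 ± 0.18, C5ar1 at −0.07 ± 0.08 and Itgam, a subunit of complement receptor 3, at −0.45 ± 0.26. Cfd, the protease of the alternative pathway that fat cells secrete, stood at −0.77 ± 0.36 and is also in the adipocyte list. The genes named here from these 2 lists are all among those that were lower. In these 2 lists 0 genes had an unadjusted p under 0.05.

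On the Csf1r axis 8 of 10 measured genes were lower with leucine than with dairy, with a median of −0.19. Csf1, a ligand of the receptor, had 3.58 and 4.22 with leucine, 5.28 and 4.69 with dairy, and 4.59 and 6.20 with casein, so the leucine arrays lay below the rest. Its log2 fold change was −1.09 ± 0.62 against dairy and −1.50 ± 0.62 against casein, or −0.69 without casein array 2. Il34, the other ligand, stood at −0.02 ± 0.10 against dairy. Spi1, which encodes PU.1, had 2.82 and 2.88 with leucine, 3.18 and 3.27 with dairy, and 3.11 and 3.44 with casein. It stood at −0.37 ± 0.13 against dairy and −0.42 ± 0.13 against casein, both with an unadjusted p under 0.05 and at signals below the median gene.

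Partners of the adaptors Tyrobp and Fcer1g were dim, with 0 of 16 measured genes above the median gene. With leucine 11 of the 16 were lower than with dairy, with a median of −0.06. Trem2, a receptor that signals through Tyrobp, stood at 0.01 ± 0.06 and Syk at 0.03 ± 0.06. Fcgr1a, a high-affinity Fc receptor that needs Fcer1g, stood at −0.45 ± 0.21 and the inhibitory Fc receptor Fcgr2b at −0.69 ± 0.59. Among genes of lipopolysaccharide sensing beside Cd14, 6 of 10 were lower, with a median of −0.10. Tlr4 stood at −0.19 ± 0.20 and its partner Ly96 at 0.12 ± 0.13, and Lbp, the plasma carrier of lipopolysaccharide, at −0.09 ± 0.42.

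Of other scavenger and lectin genes 6 of 10 were lower with leucine than with dairy and 4 were higher, with a median of −0.19. The genes of this list named next are all among those that were lower. Lyve1, a hyaluronan receptor carried by perivascular macrophages and lymphatic vessels, stood at −0.92 ± 0.40, and Clec10a, a galactose-type lectin, at −0.74 ± 0.53. Hmox1, which breaks down haem, stood at −0.50 ± 0.40. It had 3.41 and 2.30 on the leucine arrays and 3.30 and 3.41 on the dairy arrays, which overlapped. Of the 21 further macrophage genes 17 were lower, with a median of −0.21, and 1 had an unadjusted p under 0.05, or 8 without casein array 2. Ctss, a lysosomal cysteine protease, stood at −0.57 ± 0.48, Lyz2, lysozyme, at −0.78 ± 1.03 and Cybb, a subunit of the phagocyte oxidase, at −0.66 ± 0.47. The dim markers Adgre1 and Aif1 stood at −0.26 ± 0.14 and −0.13 ± 0.11. Against casein 18 of the 21 were lower with leucine, with a median of −0.33, and 12 of 21 without casein array 2, with a median of −0.04. None of the genes in any of these lists passed the adjusted threshold in any of the 3 comparisons.

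Markers of other cells and of fibre types also differed between leucine and dairy. All 12 fibroblast and matrix markers were lower with leucine than with dairy. Their median was −1.27, and 7 had an unadjusted p under 0.05. Their summed signal, added on the linear scale, was 1150 and 1042 with leucine, 3571 and 2309 with dairy, and 2504 and 2369 with casein. Col1a1, a chain of type I collagen, had 6.69 and 6.91 with leucine, 9.10 and 8.50 with dairy, and 8.97 and 8.51 with casein, with both leucine arrays the lowest. It averaged 6.80 ± 0.16 with leucine and 8.80 ± 0.42 with dairy (SD, n = 2 each). Pdgfra, a receptor of fibroblasts and their precursors, stood at −0.65 ± 0.16. All 12 adipocyte markers were lower, by a median value of −0.38, and their summed signals were 532 and 421 with leucine, 680 and 591 with dairy, and 503 and 704 with casein. Adipoq, adiponectin, stood at −1.34 ± 0.97 and the lipid droplet coat gene Plin1 at −0.32 ± 0.33. Of 9 endothelial markers 8 were lower (median −0.25), and Pecam1 stood at −0.25 ± 0.26. Fast-fibre markers were lower in 9 of 10 (median −0.26). On the other side of 0, hepatocyte markers were higher with leucine in 19 of 22 (median 0.51) and slow-fibre markers in 8 of 10 (median 0.44). In both lists 0 genes had an unadjusted p under 0.05 in limma. Relative to each gene's mean, the hepatocyte median was −1.03 and 0.78 on the leucine arrays and −0.41 and −1.10 on the dairy arrays. Leucine array 1 thus lay below dairy array 1. The medians for T and natural killer cells, B and plasma cells, neutrophils, mast cells and Kupffer cells lay between −0.04 and 0.06. Most genes of these lists were dim, with 1 of 14, 0 of 5, 0 of 11, 0 of 9 and 3 of 7 above the median gene. Medians near 0 from dim genes do not show that these cells were alike between the diets. In these lists S100a8, S100a9, Cd3e, Cd8a, Cd79b, Ms4a1, Cpa3 and Tpsb2 stood between −0.12 for Cpa3 and 0.14 for Tpsb2. The part of fibroblast, adipocyte, endothelial, hepatocyte and fibre-type transcripts in the values of the 10 genes was not tested.

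On casein array 2, the median relative to each gene's mean was 0.72 for the 10 genes, −3.04 for slow-fibre markers and 1.98 for hepatocyte markers. The summed hepatocyte signal was 276 and 2038 with leucine, 785 and 309 with dairy, and 1366 and 5774 with casein. The summed slow-fibre signal was 10917 and 12412 with leucine, 8106 and 9173 with dairy, and 10837 and 724 with casein. Alb, albumin, was highest on casein array 2 at 11.7 and ran from 4.81 on leucine array 1 to 9.80 on leucine array 2, and Apoa1 and Fgb were also highest on casein array 2, at 6.45 and 4.94. The slow myosin Myh7 was at 6.07 on casein array 2 and between 10.7 and 11.4 on the other 5, while the fast myosin Myh4 was between 12.8 and 13.2 on all 6. Neutrophil markers summed to 192 on casein array 2 and to between 77 and 80 on the other 5. Their median relative to each gene's mean was 0.22 on casein array 2 and between −0.10 and −0.0019 on the other 5. A linear sum is carried mostly by its brightest genes, so the rise need not be shared by the list. Kupffer cell markers summed to 117 on casein array 2, within the range of 114 to 136 on the other 5. The part of hepatocyte, slow-fibre and neutrophil transcripts in the values of that array was not tested.

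**Figure D4:**
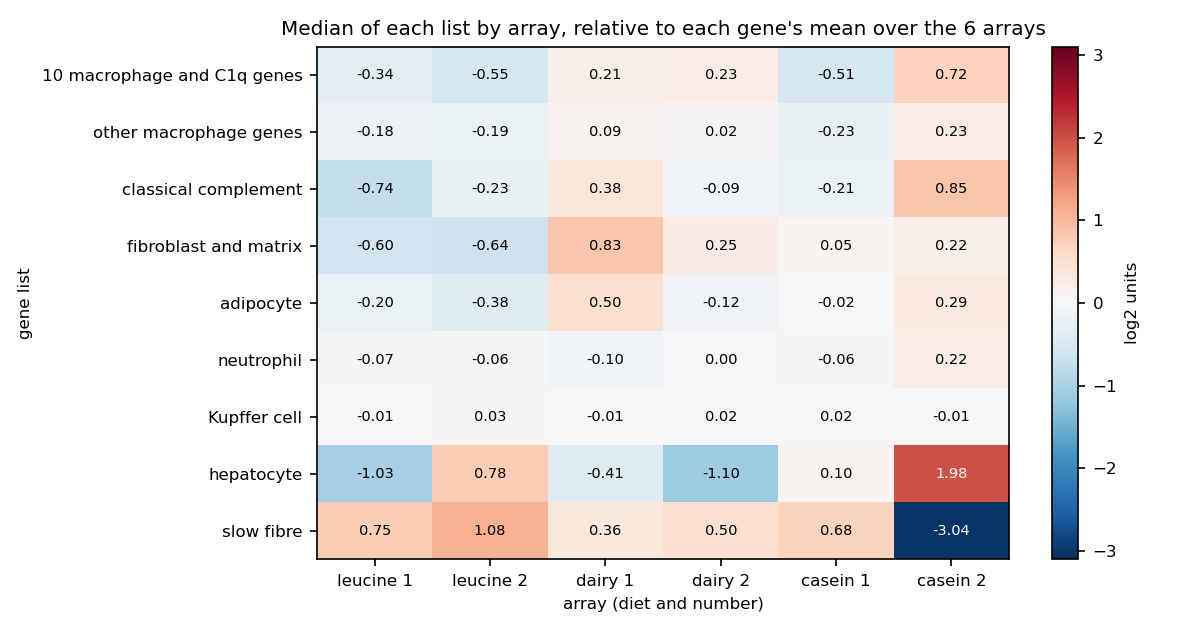
Median of the 10 genes and of 8 gene lists (rows) on each of the 6 arrays (columns), in log2 units relative to each gene's mean over the 6 arrays, with the value printed in each cell. The 10 genes and the lists of other macrophage, classical complement, fibroblast, adipocyte and neutrophil genes are below 0 on both leucine arrays. The 10 genes are also below 0 on casein array 1, at −0.51. Casein array 2 stands out for slow-fibre genes at −3.04 and hepatocyte genes at 1.98.

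The genes nearest in pattern to C1q were found by the root mean square difference, over the 6 arrays, between a gene's level relative to its own mean and the average of the C1q chains so expressed. The 5 nearest outside the set were Ppp1r18 at 0.13, Fgf7, a growth factor made by mesenchymal cells, at 0.14, Dab2, an endocytic adaptor, at 0.15, Ly6c at 0.15, and Ctss at 0.15. Within the set Cd68 was nearest at 0.13 and Cd14 farthest at 0.55. Ppp1r18 had 3.90 and 3.57 with leucine, 4.33 on both dairy arrays, and 3.72 and 4.59 with casein. Its leucine arrays were below its dairy arrays. Over the 5 arrays without casein array 2 the nearest were Chrdl2 at 0.09, Ache, the acetylcholinesterase, at 0.11, Il10rb, a receptor chain for interleukin-10, at 0.11, Ppp1r18 at 0.12 and Ctsh, a lysosomal protease, at 0.12. Cd14, the farthest of the set over 6 arrays, was then the nearest of it at 0.06. These distances describe likeness over 5 or 6 arrays and no more.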

How the data were processed

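The authors' deposited values were log2 signals per transcript cluster of an Affymetrix Rat Gene 1.0 ST array, which per the submitters' processing notes came from Affymetrix Expression Console. Its version, background correction, normalization and summarization are not given in the sources used here. Of 29214 clusters 15633 had a gene entry and 15310 had 1 gene. Symbols were updated through the gene identifier, and where a symbol had several clusters the one of highest mean signal was kept, leaving 14506 genes with no filter on dim ones. One linear model with diet as its term was fitted to all 6 arrays with limma 3.58.1 in R 4.3.3, with empirical Bayes moderation and Benjamini-Hochberg adjustment over all genes at a threshold of 0.05. Arrays of 2 diets were called apart when every value of one lay beyond every value of the other. The code was tested on simulated data. All 10 genes, fixed partner genes and the 5 genes nearest C1q are named. The members and lists were chosen with earlier results of these data known. Counts of the 10 genes beside those of all genes are therefore a description, and the lists have counts and medians and no test. Whether equal replicate numbers mark paired samples was examined through the correlation across genes of the deviations from the group means, which was 0.0865 for casein and dairy, 0.179 for casein and leucine and 0.0536 for dairy and leucine. Since not every pair exceeded 0.1, arrays were treated as unpaired. Alternatives were quantile or median normalization, a filter on dim genes, other rules for clusters and symbols, an intensity trend, array weights, the 4 arrays compared alone, the replicate block and each array left out. Some listed genes are not reported here.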

Additional observations from a re-analysis of the deposited data

How the results depend on the processing

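Each comparison was recomputed under 15 alternatives. Only quantile or median normalization and leaving out an array of the diets compared could move these fold changes. The remaining alternatives could change only the estimate of the spread or the genes kept, so they could not turn a direction. For leucine against dairy, 0 of 148 values of the 10 genes changed direction, the median ran from −0.80 to −0.62, and 0 genes were called throughout. With dim genes filtered out 8 of the 10 remained. With array 1 and array 2 as a replicate block the median was −0.59 for leucine against casein, 0.08 for dairy against casein and −0.69 for leucine against dairy, with 0 genes called in each. Every diet has an array 1 and an array 2, so the block cannot move a fold change and these medians were fixed in advance. The block changed no call. Arrays of different diets share only a number in the labels. For leucine against casein, with each array left out in turn, the median ran from −1.25 to −0.10 and the count called from 0 to 1. For dairy against casein the median ran from −0.45 to 0.72 and the count from 0 to 1. In both, the single call came without casein array 1 and was Il6, named here after its values were seen. In leucine against casein, 6 of 148 gene values changed direction. C1qc, Fcer1g, Cd68, Cd163 and Mrc1 turned without casein array 2, Cd163 also without leucine array 2 at 0.06, and with each array left out C1qc ran from −1.32 to 0.83, Fcer1g from −1.51 to 0.26, Cd68 from −1.18 to 0.16, Cd163 from −0.96 to 0.28 and Mrc1 from −1.37 to 0.0037. In dairy against casein, 15 of 148 did. Quantile normalization gave C1qb −0.044 and Mrc1 −0.0023. Between leaving out casein array 1 and casein array 2, C1qa ran from −0.26 to 0.16, C1qb from −0.20 to 0.27, C1qc from −0.63 to 1.52, Fcer1g from −0.82 to 0.95, Cd68 from −0.58 to 0.77, Cd163 from −0.31 to 0.92, Mrc1 from −0.59 to 0.78 and Cd14 from −1.81 to 0.66. Without dairy array 1, C1qa, C1qb, Cd163 and Mrc1 also changed side, and without dairy array 2 Fcer1g did. The cause of these changes was not tested. Background readings, which would show how far Tyrobp and Cd68 lie above noise, were not analysed here.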
